A study of Bos taurus with 6 samples.

Results

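The suppressor of cytokine signaling (SOCS) family and the PIM kinases were followed in bovine vaginal epithelial cells (BVECs) exposed to a Lactobacillus strain. The genes were CISH, SOCS1 to SOCS7, PIM1 and PIM3. Each was selected on its gene name in the table of RNA levels, and where several features carried the name, the feature with the highest mean level was taken. Of the 10 names, 9 were found among 18014 features, 7 of the SOCS family and 2 PIM kinases. No feature was named SOCS1, which was not analysed here. The choice was made with earlier results of the same comparison known, so the values of these 9 genes are given as a description without p-values.

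The SQ0048-treated group was 3 samples of primary BVECs, each given SQ0048 at 1000000000 CFU/ml for 4 h, and the control group was 3 samples of the same cells kept in medium alone. The cells had been isolated from vaginal tissue of healthy young cows, and bacteria that had not attached were washed off before RNA was taken. The paper calls the samples biological replicates, but separate cultures or animals are not named, and p-values then measure the spread between these samples alone, which may be technical. Levels are in FPKM (fragments per unit of exon length and of mapped library size). Comparison between genes is therefore possible but rough, since some features split or join genes. In such bulk samples, fewer cells expressing a gene and less RNA per cell cannot be told apart.

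Cytokines bind receptors that carry Janus kinases (JAKs). The JAKs phosphorylate STAT factors, which then enter the nucleus and switch on genes, the SOCS genes among them. SOCS proteins act back on the pathway: an SH2 domain binds phosphorylated receptors or JAKs, and a carboxy-terminal SOCS box recruits elongins and a cullin to attach ubiquitin to the bound protein. CISH and SOCS2 act mainly on receptors that use STAT5, SOCS3 on gp130 receptors of the IL-6 type, and SOCS4 to SOCS7 have long amino-terminal extensions and bind growth factor receptors or adaptors. PIM kinases are serine/threonine kinases that are active as soon as they are made, so their amount is set largely by transcription, much of it through STATs, and by rapid turnover. They promote survival, protein synthesis and cell cycle entry.

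Sums of FPKM over all features ranged from 372034 to 378772 in treated libraries and from 343933 to 361055 in control libraries. The table gives no read depth per library, and the mean read numbers per group in the paper were not used here. KRT8, an epithelial keratin, was at 1445, 1350 and 1405 FPKM in treated cells and at 1136, 1120 and 1099 FPKM in control cells. The adhesion molecule EPCAM was at 281, 241 and 258 FPKM in treated cells and at 259, 244 and 331 FPKM in control cells. KRT18 and CDH1 were also abundant. KRT19 averaged 1690 FPKM in treated and 1450 FPKM in control cells, and KRT7 1030 and 921 FPKM. Some epithelial markers were low, with KRT14 under the filter at 0.48 to 0.51 FPKM in treated cells and 0.19 to 0.3 FPKM in control cells. OVOL1 was at 1.26 to 8.61 FPKM in treated cells and 0.56 to 0.89 FPKM in control cells. The marker counts that follow stand beside 8.59% of all tested features that rose and 15.8% that fell. Of 15 epithelial markers, 14 were tested, 2 rose (KRT8 and KRT18) and 3 fell. GRHL2, TJP1 and DSP fell by 0.45, 0.47 and 0.27 on the log2 scale (limma, adjusted p = 0.0111, 0.00382 and 0.0389). The 15 summed to 6100 to 6440 FPKM in treated cells and 5260 to 5690 FPKM in control cells, most of it keratins. Of 16 leukocyte markers, 10 were found by name, PTPRC not among them, and they summed to 67.0 to 101 FPKM in treated cells and to 65.0 to 70.5 FPKM in control cells, nearly all of it the actin-bundling protein LCP1, at 96.76, 63.76 and 62.36 FPKM in treated cells and 67.08, 61.33 and 63.2 FPKM in control cells. CD3E, CD4 and CSF1R were listed at 0 in every treated library, whereas CD14 was at 1.06 to 1.82 FPKM in treated cells and 1.55 to 2.1 FPKM in control cells, and CD68 at 0.54 to 1 FPKM in treated cells and 0.39 to 0.54 FPKM in control cells. CORO1A, an actin-binding protein of that list, named here after its values were seen, rose to 1.77, 1.51 and 1.67 FPKM in treated cells, against 0.64, 0.54 and 0.73 FPKM in control cells (limma, adjusted p = 0.00757), as 1 of 4 tested. Of 8 endothelial markers, 6 were found and summed to 3.13 to 3.41 FPKM in treated cells and to 1.83 to 2.05 FPKM in control cells, with PECAM1 at 0 in all treated libraries. Of these, 2 were tested and VWF rose. Of 12 fibroblast markers, 7 were tested, 3 rose and 1 fell. COL1A1, a defining collagen, rose to 2.84, 2.66 and 3.16 FPKM in treated cells, against 2.01, 1.94 and 1.93 FPKM in control cells (limma, adjusted p = 0.0178). The more abundant COL3A1 was at 47.09 to 48.25 FPKM in treated cells and 49.82 to 54.3 FPKM in control cells, without overlap and not called (limma, adjusted p = 0.135), and POSTN fell by 0.78 on the log2 scale (limma, adjusted p = 0.00968). The 12 summed to 540 to 568 FPKM in treated cells and to 527 to 565 FPKM in control cells, most of it VIM, the filament protein vimentin, at 507.8, 481.45 and 509.29 FPKM in treated cells and 504, 467.78 and 463.82 FPKM in control cells. LCP1, VIM, KRT7, KRT14, KRT19, GRHL2, TJP1, DSP, OVOL1, CD14, CD68, COL3A1 and POSTN too were named after their values were seen. The part of these markers in the results was not tested.

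CISH and PIM1 stood about 4 times higher in treated BVECs, SOCS3, SOCS4 and SOCS6 stood lower, and SOCS2, SOCS5, SOCS7 and PIM3 had overlapping groups. The comparison was fitted with limma on log2(FPKM + 0.1) over 13144 features, those averaging 0.5 FPKM or more in the 6 libraries, and a feature was called at a Benjamini-Hochberg adjusted p under 0.05. All 9 genes passed the filter, 2 were called higher, 3 lower and 4 not. Across all tested features, 1129, or 8.59%, were called higher and 2072, or 15.8%, lower. The groups did not overlap and treated cells were higher for 2281 features, or 17.4%, and for 2 of the 9 genes. They did not overlap and treated cells were lower for 3722 features, or 28.3%, and for 3 of the 9 genes. The genes were chosen on this comparison, and nothing is read from these counts. The split of all calls depended on scaling: 64.7% were lower as deposited, 77.7% as TPM (values scaled to one sum per library), 51.8% once divided by size factors and 54.5% with quantile-normalized libraries. The called members kept their direction under each of these scalings.

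CISH, the founding member of the SOCS family and a brake on STAT5-using receptors, was at 30.58, 29.83 and 29.62 FPKM in treated cells, against 6.61, 7.29 and 6.99 FPKM in control cells. The lowest treated library lay far above the highest control library, and each group was tight. The means were 30.0 ± 0.505 FPKM in treated cells and 6.96 ± 0.341 FPKM in control cells (SD, n = 3 each), a ratio of 4.31. The log2 fold change of treated over control was 2.09 (SE 0.06), the 113th highest of the features tested. Across the alternative settings it lay between 1.96 and 2.17. Among all tested features, CISH was at percentile 86.2 of the levels in treated cells and at percentile 54.3 in control cells.

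SOCS2, which dampens growth hormone receptor signaling, was at 23.61, 8.10 and 23.39 FPKM in treated cells, against 17.24, 16.95 and 18.10 FPKM in control cells. Of the treated libraries, 2 lay above every control library and 1, replicate 2, lay below every one of them. The groups therefore overlapped, with means of 18.4 ± 8.89 FPKM in treated cells and 17.4 ± 0.598 FPKM in control cells (SD, n = 3 each). The log2 fold change was -0.08 (SE 0.43). It was 0.43 without treated replicate 2, where SOCS2 was also called higher, and -0.34 and -0.33 without treated replicates 1 and 3. The coefficient of variation of SOCS2 was 48.4% in treated cells and 3.43% in control cells, beside medians over all tested features of 10.8% in treated cells and 10.5% in control cells.

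SOCS3, the inducible brake on gp130 and leptin receptors, was lower in treated cells, unlike CISH. It was at 4.29, 4.40 and 3.65 FPKM in treated cells, against 6.44, 6.85 and 6.81 FPKM in control cells. Every treated library lay below every control library. The call was lost with the replicate number as a block in the fit. The means were 4.11 ± 0.405 FPKM in treated cells and 6.70 ± 0.226 FPKM in control cells (SD, n = 3 each), with a log2 fold change of -0.69 (SE 0.09) that lay between -0.79 and -0.57 under the alternatives.

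SOCS4 and SOCS5 are close relatives known to act on the epidermal growth factor receptor. SOCS4 was at 2.75, 3.05 and 2.22 FPKM in treated cells, against 4.94, 4.22 and 5.70 FPKM in control cells, and the groups did not overlap. The log2 fold change was -0.87 (SE 0.16). The call was lost without treated replicate 1, control replicate 1 or control replicate 3, where the log2 fold change was -0.89, -0.86 and -0.76. It was also lost with the replicate number as a block in the fit. A further feature named SOCS4 was at 0.25, 0 and 0 FPKM in treated cells and at 0.94, 0.20 and 0 FPKM in control cells, under the filter. SOCS5 was at 0.03, 2.31 and 1.52 FPKM in treated cells, against 2.98, 2.90 and 0.07 FPKM in control cells. Each group held 1 library near 0 beside 2 libraries above 1.5 FPKM, and the direction of the difference changed with the library left out. The log2 fold change of SOCS5 was -0.54 (SE 1.61). It was 0.77 without treated replicate 1 and -1.93 without control replicate 3, and it was also above 0 without control replicate 1 or 2, at 0.16 and 0.14.

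SOCS6, which binds insulin receptor pathway proteins and the receptor KIT, was at 4.55, 4.86 and 4.41 FPKM in treated cells, against 6.43, 6.6 and 6.45 FPKM in control cells. The groups did not overlap, and the spread within each was small. The call was lost with the replicate number as a block in the fit. The means were 4.61 ± 0.23 FPKM in treated cells and 6.49 ± 0.0929 FPKM in control cells (SD, n = 3 each), with a log2 fold change of -0.49 (SE 0.07). SOCS7, an adaptor-binding member, was at 5.22, 5.83 and 5.33 FPKM in treated cells, against 4.95, 5.31 and 5.30 FPKM in control cells. Its groups overlapped and its log2 fold change was 0.07 (SE 0.08), turning to -0.02 as TPM.

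PIM1, a kinase that stabilises the MYC protein and phosphorylates the death promoter BAD, was at 47.57, 42.05 and 42.27 FPKM in treated cells, against 11.44, 10.92 and 11 FPKM in control cells. As for CISH, the groups were far apart. The means were 44.0 ± 3.13 FPKM in treated cells and 11.1 ± 0.28 FPKM in control cells (SD, n = 3 each), a ratio of 3.95, and the log2 fold change was 1.97 (SE 0.07), the 138th highest of the features tested. It lay between 1.89 and 2.05 under the alternatives.

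PIM3, a paralog with overlapping substrates, was at 25.67, 24.16 and 23.35 FPKM in treated cells, against 25.43, 27.99 and 24.25 FPKM in control cells. The groups overlapped, and the log2 fold change was -0.08 (SE 0.08), ranging from -0.17 to -0.01 under the alternatives. PIM2 appeared in the table only as a feature that joins it with SLC35A2, a nucleotide sugar transporter gene, and the 2 genes cannot be separated there. That joint feature was at 15.17, 14.05 and 13.71 FPKM in treated cells, against 11.39, 11.68 and 5.33 FPKM in control cells. Its log2 fold change of 0.67 (SE 0.31) did not pass the threshold (limma, adjusted p = 0.176).

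**Figure D1:**
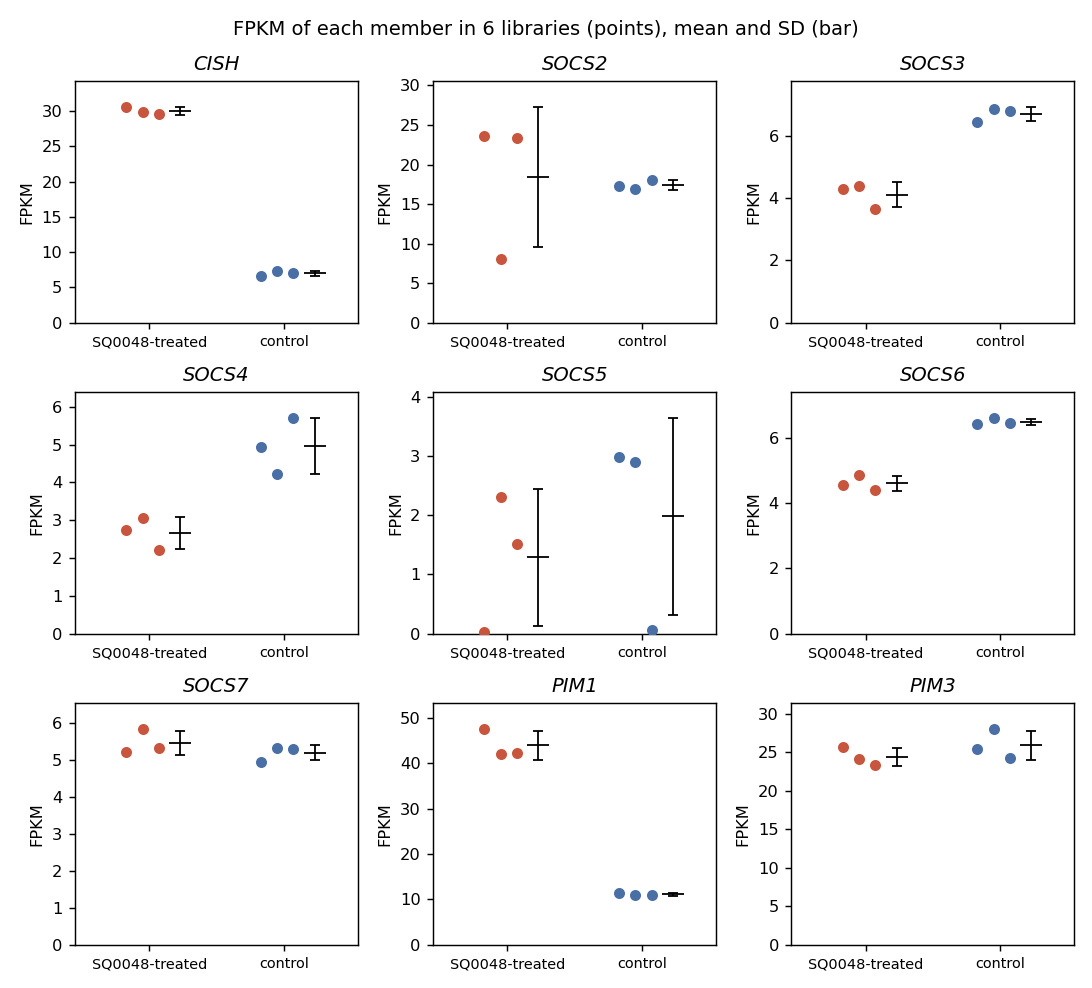
FPKM of the 9 genes in the 3 SQ0048-treated and 3 control libraries, each panel with its own linear axis from 0, points for libraries and bars for mean ± SD. CISH and PIM1 lie far higher in treated libraries, SOCS3, SOCS4 and SOCS6 lie lower without overlap, and SOCS2 and SOCS5 each hold libraries far from the others of their group.

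The log2 fold changes of the 9 genes had a median of -0.08, beside a median of -0.08 over all tested features. CISH and PIM1 were the members with a change of at least 2-fold, which 522 tested features showed upward and 707 downward. Among the others, the called ones lay between -0.87 and -0.49 and the rest between -0.54 and 0.07.

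**Figure D2:**
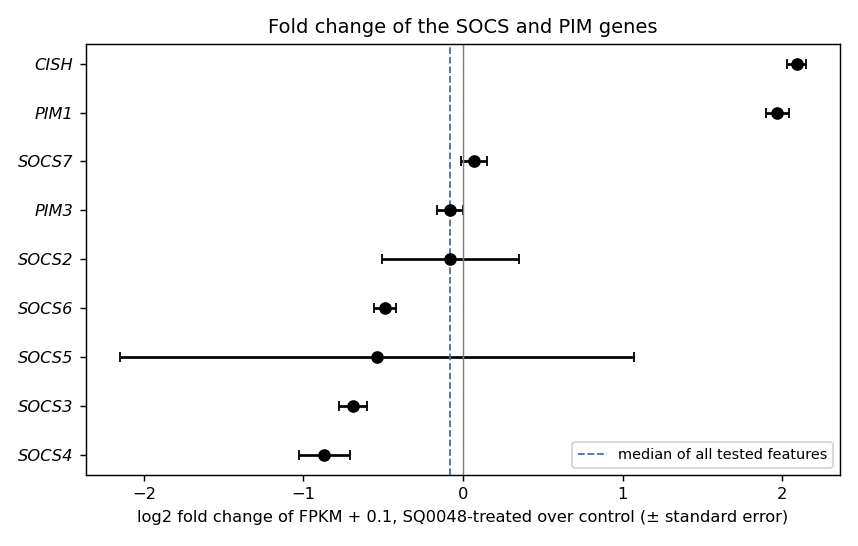
Log2 fold change of FPKM + 0.1, SQ0048-treated over control, with its standard error from limma (horizontal bars) for each of the 9 genes, and the median of all tested features as a dashed line. CISH at 2.09 and PIM1 at 1.97 lie apart from the other genes, and SOCS5 has the widest error, 1.61.

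The order of the genes by level differed between the groups. In treated cells PIM1 was highest at a mean of 44.0 FPKM, followed by CISH at 30.0, PIM3 at 24.4 and SOCS2 at 18.4 FPKM. The remaining SOCS genes were all below 6 FPKM, in the order SOCS7, SOCS6, SOCS3, SOCS4 and SOCS5. The ranges of PIM3 and SOCS2 overlapped there, as did those of SOCS4 and SOCS5, and the other neighbours in the order did not. In control cells PIM3 was highest at 25.9 FPKM, followed by SOCS2 at 17.4, PIM1 at 11.1 and CISH at 6.96 FPKM. CISH and SOCS3 overlapped in control cells, as did SOCS3 and SOCS6, and SOCS7 and SOCS4, so that these neighbours were not separated. The 9 genes summed to 135.0 ± 9.87 FPKM in treated cells and 86.7 ± 2.19 FPKM in control cells (SD, n = 3 each). PIM1 made up 32.6% of that sum in treated cells and 12.8% in control cells. CISH made up 22.2% in treated cells and 8.03% in control cells.

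A ratio of 2 genes within a library does not change when all its values are divided by a common factor. Quantile normalization can change it. PIM1 over PIM3 was 1.85, 1.74 and 1.81 in treated libraries and 0.450, 0.390 and 0.454 in control libraries. PIM1 was thus the more abundant of the pair in every treated library and the less abundant in every control library. CISH over SOCS3 was 7.13, 6.78 and 8.12 in treated libraries and 1.03, 1.06 and 1.03 in control libraries. The 2 brakes were at nearly equal levels in control cells. CISH over SOCS7 averaged 5.51 ± 0.373 in treated libraries and 1.34 ± 0.0277 in control libraries (SD, n = 3 each). SOCS3 over SOCS7 averaged 0.754 ± 0.0685 in treated libraries and 1.29 ± 0.00823 in control libraries, and SOCS6 over SOCS7 averaged 0.844 ± 0.024 in treated libraries and 1.25 ± 0.0419 in control libraries (SD, n = 3 each). The ratio of PIM1 to CISH was 1.56, 1.41 and 1.43 in treated libraries and 1.73, 1.5 and 1.57 in control libraries, and these overlapped.

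**Figure D3:**
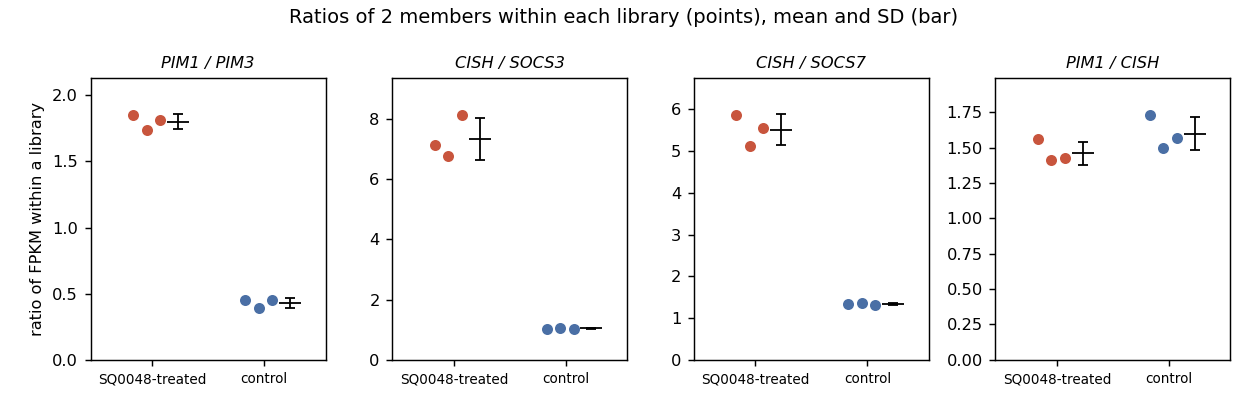
Ratio of the FPKM of 2 genes within each library for PIM1/PIM3, CISH/SOCS3, CISH/SOCS7 and PIM1/CISH, on linear axes from 0, with points for the 3 SQ0048-treated and 3 control libraries and bars for mean ± SD. The treated and control libraries are apart in the left 3 panels (PIM1/PIM3 1.8 and 0.431) and overlap for PIM1/CISH.

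The features whose levels over the 6 libraries followed CISH and PIM1 most closely were found by Pearson correlation of log2(FPKM + 0.1), a description in which all points share the same 2 groups. For CISH these were PPP1R15A, IRF2BPL and VWF, each with r = 0.999 (n = 6 libraries). PPP1R15A, a regulatory subunit that restores translation after stress, was at 59.13, 55.74 and 57.43 FPKM in treated cells, against 14.59, 14.75 and 14.86 FPKM in control cells. IRF2BPL was at 6.38, 5.49 and 6.09 FPKM in treated cells and was listed at 0 in the 3 control libraries, so no fold is given. VWF was low throughout, at 2.49, 2.40 and 2.42 FPKM in treated cells, against 1.5, 1.57 and 1.52 FPKM in control cells. For PIM1 they were SLC3A2, PFKFB3 and GRASP, also with r = 0.999. PFKFB3, an activator of glycolysis, was at 103.9, 101.23 and 100.43 FPKM in treated cells, against 50.87, 49.73 and 51.08 FPKM in control cells. SLC3A2, the heavy chain of amino acid transporters, was at 108.04, 102.86 and 105.25 FPKM in treated cells, against 69.46, 69.68 and 69.22 FPKM in control cells. GRASP was at 3.70, 3.46 and 3.45 FPKM in treated cells, against 0.45, 0.40 and 0.44 FPKM in control cells.

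The rest of the pathway was described through 10 lists of genes that are no members, 176 in all, of which 126 were found and 94 tested. Of these, 13 rose (13.8%) and 21 fell (22.3%), with a median log2 fold change of -0.10. The shares over the whole table were 8.59% and 15.8%, with a median of -0.08. The same shares stand beside the count of each list below. The lists were written with earlier results of these data known, and nothing is read from their counts. Calls lost with the replicate number as a block in the fit are named at the end. Many cytokines and cytokine receptors were found but lay below the filter.

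Ligands and receptors come first in the pathway. Of 38 ligands, 20 were found, 8 tested, 1 rose and 2 fell. IL11, a gp130 cytokine made by epithelia and stroma, rose to 7.62, 6.45 and 6.92 FPKM in treated cells, against 1.73, 1.94 and 1.17 FPKM in control cells (log2 fold change 2.08, SE 0.20, limma, adjusted p = 0.00319). IL6, the cytokine for which SOCS3 is the classical brake, fell to 9.73, 6.06 and 9.43 FPKM in treated cells, against 22.74, 23.56 and 12.71 FPKM in control cells (log2 fold change -1.19, SE 0.31, limma, adjusted p = 0.0401). The 2 gp130 cytokines thus moved in opposite directions, but the IL6 call was lost in limma without treated replicate 1, 2 or 3 or control replicate 1 or 2, at adjusted p of 0.0806, 0.087, 0.0852, 0.113 and 0.103, within a range of 0.0271 to 0.113 over the alternatives. The IL6 call was also lost with no filter, size factors, quantile normalization or no trend (limma, adjusted p = 0.0531, 0.0517, 0.0581 and 0.0512). IL6 was called in 6 of 16 alternatives. IL23A, a subunit of IL-23, fell by 0.46 on the log2 scale (SE 0.07, limma, adjusted p = 0.0103).

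Of 10 gp130 family receptors, 7 were found, 4 tested and 1 called. IL6ST, which encodes gp130 itself, fell to 6.15, 5.76 and 5.41 FPKM in treated cells, against 10.41, 10.36 and 13.56 FPKM in control cells (log2 fold change -0.97, SE 0.13, limma, adjusted p = 0.00692). A feature joining IL11RA with GALT, not counted in this list, was named after its values were seen. It rose to 9.0, 8.06 and 7.75 FPKM in treated cells, against 6.45, 6.95 and 6.53 FPKM in control cells (limma, adjusted p = 0.0439). The 2 genes cannot be separated there, and the alternatives were not examined for it. Of 32 other JAK-coupled receptors, 23 were found, 12 tested, 1 rose and 2 fell. IFNAR1, a chain of the type I interferon receptor, fell to 13.65, 17.65 and 15.48 FPKM in treated cells, against 38.71, 35.25 and 40.56 FPKM in control cells (log2 fold change -1.29, SE 0.11, limma, adjusted p = 0.00251). IFNLR1, the type III interferon receptor chain typical of epithelia, rose by 0.40 on the log2 scale (SE 0.07, limma, adjusted p = 0.0148). In limma that call was lost without treated replicate 1 (adjusted p = 0.0577) or control replicate 1 (adjusted p = 0.053), in a range of 0.00813 to 0.0688 over the alternatives. IFNGR2, a chain of the interferon gamma receptor, fell by 0.18 on the log2 scale (SE 0.05, limma, adjusted p = 0.04). Leaving out any 1 of the 6 libraries ended the IFNGR2 call, with limma adjusted p of 0.0657 to 0.11, in a range of 0.021 to 0.217 over the alternatives. It was also lost when libraries were divided by size factors, where the log2 fold change was -0.10 (limma, adjusted p = 0.217), and without a trend (limma, adjusted p = 0.091), and the log2 fold change was -0.27 as TPM.

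Of the 4 JAKs, all tested, JAK2 was called. JAK2, a kinase of growth hormone and gp130 receptors among others, fell to 2.51, 2.92 and 2.24 FPKM in treated cells, against 3.80, 4.57 and 5.32 FPKM in control cells (log2 fold change -0.81, SE 0.16, limma, adjusted p = 0.0201). The JAK2 call was lost without treated replicate 1 or 3 or control replicate 2 or 3 (limma, adjusted p = 0.0687, 0.0649, 0.0587 and 0.0572, in a range of 0.0154 to 0.0728 over the alternatives). JAK3, named after its values were seen, was at 2.05, 1.80 and 1.86 FPKM in treated cells and at 1.07, 0.48 and 1.13 FPKM in control cells without passing the threshold (limma, adjusted p = 0.0591). JAK1, the most abundant of the 4 and also named after its values were seen, had overlapping groups. It was at 17.52, 18.55 and 17.78 FPKM in treated cells and 22.41, 21.12 and 17.06 FPKM in control cells (limma, adjusted p = 0.348).

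Of 7 STATs, 6 were tested, 1 rose and 3 fell. STAT3, the main factor downstream of gp130 and an activator of SOCS3, fell to 28.68, 27.30 and 28.14 FPKM in treated cells, against 36.86, 36.40 and 38.56 FPKM in control cells (log2 fold change -0.41, SE 0.05, limma, adjusted p = 0.00619). STAT2, a factor of type I and III interferon signaling, fell to 12.19, 11.38 and 12.96 FPKM in treated cells, against 19.92, 18.69 and 26.81 FPKM in control cells (log2 fold change -0.82, SE 0.15, limma, adjusted p = 0.0152). Without treated replicate 1 its adjusted p was 0.0553 in limma, in a range of 0.0127 to 0.0553 over the alternatives. STAT5A, which activates CISH and PIM1 in other cells, rose to 8.77, 8.83 and 8.30 FPKM in treated cells, against 7.21, 7.21 and 7.29 FPKM in control cells (log2 fold change 0.25, SE 0.06, limma, adjusted p = 0.0328). Leaving out any 1 of the 6 libraries ended the STAT5A call, with limma adjusted p of 0.0616 to 0.102, in a range of 0.0118 to 0.125 over the alternatives. The call was also lost as TPM, where the log2 fold change was 0.16 (limma, adjusted p = 0.125).

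Among 12 genes listed here as other brakes of the pathway, 11 were tested, 2 rose and 2 fell. The list is broad, and not every gene of it acts only as a brake. PTPN6, the phosphatase SHP-1, rose to 7.98, 8.58 and 8.11 FPKM in treated cells, against 4.18, 4.58 and 5.07 FPKM in control cells (log2 fold change 0.83, SE 0.09, limma, adjusted p = 0.00466). PTPN11, the phosphatase SHP-2 that binds the same site of gp130 as SOCS3, fell to 24.86, 29.96 and 27.05 FPKM in treated cells, against 43.63, 43.02 and 47.10 FPKM in control cells (log2 fold change -0.71, SE 0.08, limma, adjusted p = 0.00567). The related phosphatases thus moved in opposite directions. PTPN1, a phosphatase of JAK2 and the insulin receptor, rose by 0.39 on the log2 scale (SE 0.06, limma, adjusted p = 0.0108). PIAS1, an inhibitor of activated STATs, fell by 0.42 on the log2 scale (SE 0.07, limma, adjusted p = 0.0143), with limma adjusted p of 0.0546 and 0.053 without treated replicate 1 or control replicate 1, in a range of 0.011 to 0.0736 over the alternatives, the highest with features summed by symbol.

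Of 14 names for partners of the SOCS box, 7 were found and tested, 2 fell and 5 did not pass the threshold. CUL5, the cullin that SOCS boxes recruit, fell to 1.27, 1.93 and 1.73 FPKM in treated cells, against 3.06, 3.27 and 3.78 FPKM in control cells (log2 fold change -1.01, SE 0.18, limma, adjusted p = 0.0147). CUL2, its close relative, fell by 0.61 on the log2 scale (SE 0.11, limma, adjusted p = 0.0154). The CUL5 call was lost in limma without control replicate 3 (adjusted p = 0.0524, range 0.0131 to 0.0524 over the alternatives), and the CUL2 call without treated replicate 1 or control replicate 1 (adjusted p = 0.0522 and 0.0512, range 0.0131 to 0.0795).

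Among 12 growth factor receptors and adaptors that SOCS proteins are known to bind, 9 were tested, 1 rose (11.1%) and 5 fell (55.6%). Their median log2 fold change was -0.46. Over all tested features the shares were 8.59% and 15.8%, and the median was -0.08. EGFR, the receptor that SOCS4 and SOCS5 act on, fell to 12.99, 13.55 and 14.18 FPKM in treated cells, against 23.09, 22.79 and 25.06 FPKM in control cells (log2 fold change -0.80, SE 0.07, limma, adjusted p = 0.00251). MET, the hepatocyte growth factor receptor, fell to 22.92, 24.65 and 18.76 FPKM in treated cells, against 42.47, 39.66 and 47.76 FPKM in control cells (log2 fold change -0.97, SE 0.13, limma, adjusted p = 0.00663). The insulin receptor INSR and its relative IGF1R fell by 0.54 and 0.49 on the log2 scale (limma, adjusted p = 0.00829 and 0.00769).

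Among 26 genes known as STAT targets, which were listed apart from SOCS and PIM genes, 14 were tested, 2 rose and 3 fell. NFIL3, a transcription factor induced by cytokines, rose to 7.74, 7.16 and 7.59 FPKM in treated cells, against 1.62, 1.80 and 2.10 FPKM in control cells (log2 fold change 1.98, SE 0.11, limma, adjusted p = 8.7e-04). BCL6, a repressor that shares sites with STAT factors, rose to 16.00, 16.52 and 16.46 FPKM in treated cells, against 9.16, 9.21 and 10.42 FPKM in control cells (log2 fold change 0.76, SE 0.07, limma, adjusted p = 0.00319). CCND1, or cyclin D1, fell to 17.04, 17.04 and 15.54 FPKM in treated cells, against 39.14, 44.08 and 41.75 FPKM in control cells (log2 fold change -1.33, SE 0.07, limma, adjusted p = 8.3e-04). BCL3, a partner of NF-kB, fell to 13.37, 11.72 and 11.62 FPKM in treated cells, against 32.23, 39.56 and 31.99 FPKM in control cells (log2 fold change -1.49, SE 0.11, limma, adjusted p = 0.00178). Genes of this list thus moved both ways.

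Among 24 substrates, effectors and chaperones of PIM kinases, 22 were tested, 5 rose (22.7%) and 1 fell (4.55%). The chaperones HSP90AA1 and HSP90AB1 were among those that rose. Over all tested features the shares were 8.59% and 15.8%. CDKN1A, the cell cycle inhibitor p21, which PIM1 phosphorylates, was at 64.52, 254.07 and 65.65 FPKM in treated cells, against 12.81, 11.93 and 14.45 FPKM in control cells. All treated libraries lay above all control libraries, with replicate 2 far above the others, and the log2 fold change was 2.97 (SE 0.55, limma, adjusted p = 0.0164). Without treated replicate 2 the log2 fold change was 2.31. Without control replicate 1, 2 or 3 the limma adjusted p was 0.0549, 0.051 and 0.0534, in a range of 0.00323 to 0.0587 over the alternatives. HSP90AA1, a chaperone that protects PIM kinases from degradation, rose to 479.80, 569.95 and 496.50 FPKM in treated cells, against 273.44, 263.01 and 283.50 FPKM in control cells (log2 fold change 0.91, SE 0.08, limma, adjusted p = 0.00251). HSP90AB1 rose by 0.52 on the log2 scale (SE 0.05, limma, adjusted p = 0.00355), although after quantile normalization its log2 fold change was 0.26 and its limma adjusted p was 0.053, the highest over the alternatives, of which the lowest was 0.00252. MYC, whose protein PIM1 stabilises and which is also a STAT target, fell to 63.50, 53.22 and 57.39 FPKM in treated cells, against 86.71, 97.80 and 89.03 FPKM in control cells (log2 fold change -0.65, SE 0.09, limma, adjusted p = 0.00684).

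**Figure D4:**
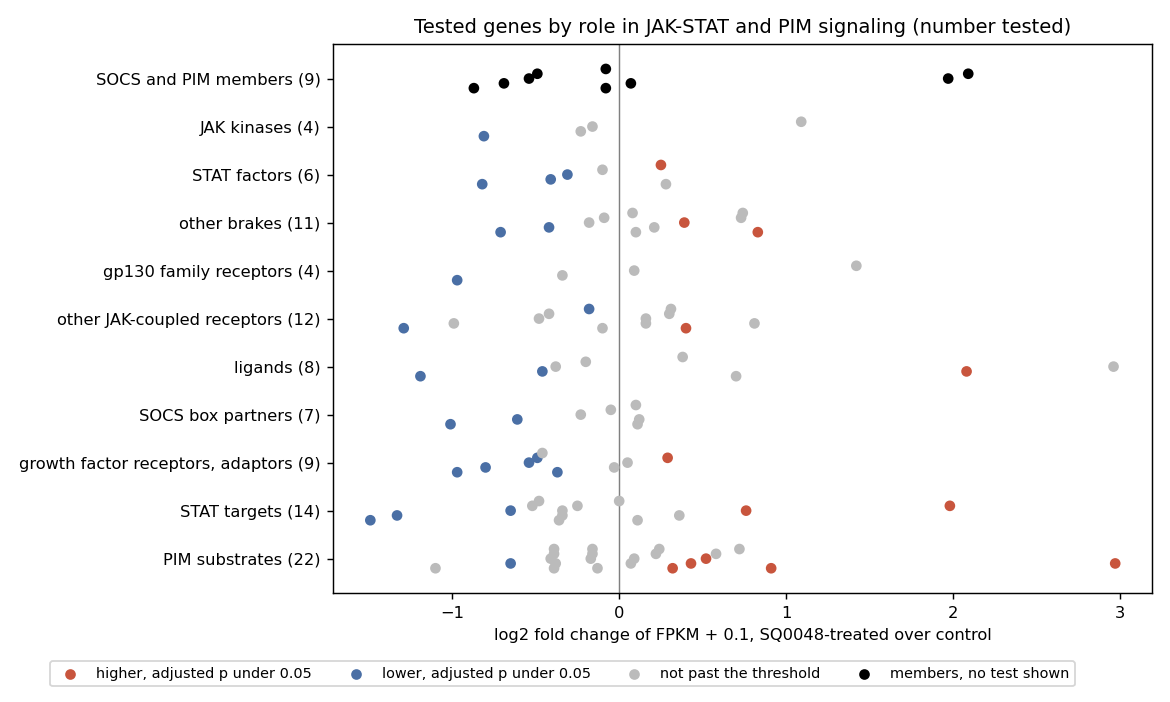
Log2 fold change of FPKM + 0.1, SQ0048-treated over control, for every tested gene of the 10 pathway lists (1 row a list, number tested in parentheses, small vertical offsets for visibility) and the 9 SOCS and PIM genes in black on top. Red points rose and blue points fell at a limma adjusted p under 0.05, and grey points did not pass, so that the row of growth factor receptors holds 1 red and 5 blue points. The row of PIM substrates also holds the chaperones HSP90AA1 and HSP90AB1.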

How the data were processed

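Polyadenylated RNA of 6 BVEC samples was sequenced on an Illumina HiSeq. The authors deposited 1 table of FPKM values per feature and library, rounded to 2 decimals. Their paper names Cutadapt, FastQC, Hisat 2.0, Cufflinks and edgeR, whereas StringTie 1.3.0, HISAT2 2.0, Bowtie 0.12.2 and the build ARS-UCD1.2 stand in the submitters' processing notes. Library kits with and without strand marking are named. The strand setting of the counting was not given in the sources used here. Reads of overlapping genes may therefore be shared. The deposited FPKM values keep no read counts, and the paper gives read numbers only as group means, so no counting interval is given. The table joins several genes in 269 features, and 0 of its per-sample value columns went unused. An exact 0 may be a failed estimate.

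The treatment field of each sample gave the condition, and sample titles matched the value columns to the samples. Python 3.11.15 with pandas 2.3.3 read the values and matplotlib 3.10.9 drew the figures. The test was limma 3.58.1 in R 4.3.3, using lmFit and eBayes (trended, condition only, two-sided). The count test named in the paper could not be used on FPKM. Fold changes on the log2(FPKM + 0.1) scale understate the change of low genes. The procedure was run on simulated data with independent normal noise in each feature. Such data do not reproduce outlying libraries like those of SOCS2, SOCS5 and CDKN1A.

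The members and all lists were chosen with earlier results of these data known. Named genes were all members, PIM2, up to 4 called genes of each pathway list by absolute log2 fold change, the 3 features most correlated with each member that changed at least 2-fold, and KRT8, KRT18, EPCAM, CDH1, PTPRC, PECAM1 and COL1A1. One gene that the rule takes is not reported here. CORO1A, LCP1, VIM, KRT7, KRT14, KRT19, GRHL2, TJP1, DSP, OVOL1, CD14, CD68, COL3A1 and POSTN were added after their values were seen. So were JAK1, JAK3, CLCF1, LIF, the feature joining IL11RA with GALT and 2 features beside PIM1. Genes of a list with several features used the one with the highest mean. Alternatives were pseudocounts of 1 and 0.01, dropping the filter or raising it to 5 FPKM, TPM, median-of-ratios size factors, quantile normalization, no trend, the replicate number as a block, features summed by symbol, and each library left out in turn. Promoter, protein and genome sequences were not used here.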

Additional observations from a re-analysis of the deposited data

How the results depend on the processing

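As deposited, 3201 features were called, and 1662 to 2966 when 1 library was left out. Left out in turn, treated replicates 1, 2 and 3 gave 1662, 2966 and 1814, and control replicates 1, 2 and 3 gave 1796, 2244 and 1946. Leaving out a library gave 2 to 3 members called higher and 2 to 3 called lower, against 2 and 3 with all libraries. Pathway genes called higher numbered 9 to 12, against 13, and those called lower 14 to 20, against 21. The median log2 fold change of the members was -0.08. It was -0.17 after rescaling to TPM, where the median of all features was -0.171 in place of -0.081, and -0.33 (without treated replicate 3) to -0.03 with 1 library left out. The lower share of all calls was 64.7%, and 77.7% with TPM, 51.8% with size factors and 54.5% after quantile normalization. With a mean of at least 5 FPKM, 2 members were called lower, since SOCS4 was no longer tested.

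No pairing by replicate number was seen in the values: deviations of same-numbered libraries correlated at -0.012, 0.001 and 0.01. Whether same-numbered samples shared a culture or animal is not stated, and these correlations cannot decide it. With the replicate block, 847 features were called, 2 members were higher and 0 lower (limma; 3 were lower at an unadjusted p under 0.05), and 7 pathway genes were higher and 7 lower. Of the 30 called pathway genes that the naming rule takes, 11 were called under every alternative, 7 (IGF1R, IL23A, IL6ST, INSR, MET, MYC and PTPN1, limma adjusted p of 0.051 to 0.0617) lost the call under the replicate block only, 12 under at least 1 other alternative, and 0 turned in sign. The replicate block also ended the calls of CDKN1A, CUL2, CUL5, IFNGR2, IFNLR1, IL6, JAK2, PIAS1 and STAT5A. The cause of these changes was not tested.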

Other observations

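In the deposited annotation, 91 features belong to the KEGG Jak-STAT signaling pathway, of which 62 were tested, 9 rose (14.5%) and 17 fell (27.4%). Without the SOCS and PIM genes it was 58 tested, 7 higher (12.1%) and 17 lower (29.3%), with a median log2 fold change of -0.17. The shares over the whole table were 8.59% and 15.8%. This list was counted after the table was seen.

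A pair of features whose identifiers stand directly before and after that of PIM1 were looked at after the values were seen. MSTRG.8219, annotated with an Ensembl identifier but no symbol, was at 89.88, 53.92 and 98.66 FPKM in treated cells, against 45.19, 47.45 and 46.12 FPKM in control cells, without overlap, and did not pass the threshold (limma, adjusted p = 0.065). MSTRG.8221, which carries no gene name, was at 5.55, 3.24 and 4.70 FPKM in treated cells, against 0.99, 2.01 and 0.84 FPKM in control cells, a log2 fold change of 1.80 (SE 0.36, limma, adjusted p = 0.0207).

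Apart from SOCS2 and SOCS5, other cytokine pathway genes also held libraries that stood apart from their group. CLCF1, a gp130 ligand named after its values were seen, was at 16.46, 16.17 and 0 FPKM in treated cells, against 5.67, 0 and 0 FPKM in control cells. LIF, another such ligand also named after its values were seen, was at 29.74, 68.68 and 66.67 FPKM in treated cells, against 55.74, 62.13 and 59.55 FPKM in control cells, with overlapping groups.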
